A study of Mus musculus with 6 samples.

Results

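Krüppel-like factors (KLFs) are zinc finger transcription factors, and 10 of them that act in adipocyte differentiation were followed here in brown adipocytes with and without knockout of MICT1. The genes were taken by symbol, Klf2, Klf3, Klf4, Klf5, Klf6, Klf7, Klf9, Klf10, Klf13 and Klf15, and all 10 were found among the 13283 genes of the RNA-seq table. The cells were BAT cells, a mouse brown preadipocyte line grown and differentiated in culture, which stably express Cas9. MICT1 KO cells were knockout pools made with sgRNAs against MICT1, not single clones, and the controls, labelled WT, were BAT-Cas9 cells given a scrambled sgRNA (Scr). The 6 cultures, 3 of each group, received 10 µM forskolin, an activator of adenylyl cyclase that raises cAMP, for 6 h on day 6 of differentiation. Every comparison is therefore between stimulated cells. Which sgRNA pool each MICT1 KO library came from was not given in the sources used here.

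KLFs share 3 C2H2 zinc fingers at their C terminus, which bind GC-rich and CACCC sequences, and differ in the rest of the protein, which recruits activators or corepressors. During adipogenesis they act as a relay around C/EBP factors and PPARγ, the nuclear receptor that drives the adipocyte program. Klf4, Klf5, Klf6, Klf9, Klf13 and Klf15 are known to promote the process, whereas Klf2, Klf3 and Klf7 are known to hold it back. Klf10, a gene induced by TGF-β, was placed in neither class.

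The promoters of the 5 factors that both passed the test between groups and had a sequence are shown first, since KLFs are themselves targets of factors that bind GC boxes, CACCC boxes and cAMP response elements. The sequences are from RefSeq on GRCm38.p6, where 8 of the 10 factors were matched and Klf5 and Klf10 were not, and each runs over the 250 bases before the start of transcription on the strand of the gene. Capitals mark every match on either strand to the GC box GGGCGG, the CACCC box CCACCC or the half-site of the cAMP response element, TGACG, and neighbouring matches may overlap. The 3 factors that fell in MICT1 KO cells come first, Klf9 (chr19:23140976-23141225, plus strand), Klf13 (chr7:63938916-63939165, minus strand) and Klf15 (chr6:90462326-90462575, plus strand, at a start site inside the span of the gene), then Klf6 (chr13:5861239-5861488, plus strand) and Klf3 (chr5:64803271-64803520, plus strand), which rose.
Klf9: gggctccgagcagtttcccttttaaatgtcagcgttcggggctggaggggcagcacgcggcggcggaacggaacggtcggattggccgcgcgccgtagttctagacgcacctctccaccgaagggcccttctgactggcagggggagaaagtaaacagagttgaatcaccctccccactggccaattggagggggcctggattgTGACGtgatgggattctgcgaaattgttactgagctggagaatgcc
Klf13: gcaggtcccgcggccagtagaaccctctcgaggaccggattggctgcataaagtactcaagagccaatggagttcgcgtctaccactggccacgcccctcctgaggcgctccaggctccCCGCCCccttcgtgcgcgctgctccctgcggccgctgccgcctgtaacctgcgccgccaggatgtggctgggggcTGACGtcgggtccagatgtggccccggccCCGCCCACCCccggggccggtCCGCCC
Klf15: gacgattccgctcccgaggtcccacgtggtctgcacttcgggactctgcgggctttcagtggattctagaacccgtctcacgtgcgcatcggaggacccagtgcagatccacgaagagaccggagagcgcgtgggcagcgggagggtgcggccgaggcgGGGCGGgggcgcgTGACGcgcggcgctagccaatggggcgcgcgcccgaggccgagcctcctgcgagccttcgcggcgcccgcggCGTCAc
Klf6: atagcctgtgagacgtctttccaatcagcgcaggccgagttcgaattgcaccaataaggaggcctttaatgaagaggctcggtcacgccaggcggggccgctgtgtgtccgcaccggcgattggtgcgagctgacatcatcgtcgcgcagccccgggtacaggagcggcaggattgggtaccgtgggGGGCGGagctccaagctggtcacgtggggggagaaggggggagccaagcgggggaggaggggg
Klf3: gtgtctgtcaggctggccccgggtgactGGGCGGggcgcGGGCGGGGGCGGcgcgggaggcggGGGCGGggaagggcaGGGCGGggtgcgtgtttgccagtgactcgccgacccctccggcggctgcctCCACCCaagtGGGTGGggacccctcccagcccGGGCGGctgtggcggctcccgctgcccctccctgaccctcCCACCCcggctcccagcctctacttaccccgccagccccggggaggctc

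The half-site TGACG was present in the promoters of Klf9, Klf13 and Klf15, and also in those of Klf2 and Klf4, so in 5 of the 8 against 17.8% of all 32851 promoters of the same length. It was not found in this window of Klf3, Klf6 or Klf7. The GC box stood in 7 of the 8, all but Klf9, against 32.7% of all promoters, and the CACCC box in 4 (Klf2, Klf3, Klf7 and Klf13) against 28.1%. The E-box CACGTG was found in 3 (Klf4, Klf6 and Klf15), against 6.02%. The full cAMP response element TGACGTCA, the TATA box TATAAA, the CArG box of serum response factor and the glucocorticoid response element were found in 0 of the 8, with 1.55%, 12.4%, 1.47% and 0.0304% of all promoters. The 8 windows were rich in G and C, from 59.2% (Klf7) to 78.4% (Klf3), and the shares of all promoters were not matched for this. These matches describe the letters of a short window, and no binding was measured.

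The 6 libraries corresponded to 15445800 to 17925100 estimated reads. The values compared are the authors' normalised values, estimated reads per gene divided by 1 size factor per library. Pearson correlations of log2(value + 1) across genes, which are not independent replicates, were 0.987 to 0.990 within the groups and 0.929 to 0.940 between them. Scr replicate 2 stood apart in Rn45s, the precursor of ribosomal RNA, which took 1.92% of its summed values against 0.507% to 0.831% in the others. The labels were not checked on the targeted gene, whose level was not analysed here. The labelled cell type was checked on adipocyte markers, whose 6 members (Adipoq, Plin1, Fabp4, Cidec, Lpl and Pparg) summed to between 112087 and 132012 in Scr libraries and between 13514 and 19512 in MICT1 KO libraries, and the 5 besides Adipoq were lower by limma-trend. Ucp1 of brown fat was low in both groups, at 20.8, 24.1 and 30.5 in the controls and 1.91, 1.05 and 9.33 after the knockout. The 3 brown adipocyte markers of 8 that were in the table summed to 121 to 156 and 130 to 176, and the other 5 were not analysed here. Most of these sums was Cox7a1, at 91.8 to 123 and 113 to 166. In such bulk libraries, fewer differentiated cells and less RNA of a gene per cell cannot be told apart.

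Of the 10 KLFs, 3 were lower and 3 higher in MICT1 KO cells at an adjusted p under 0.05 (limma-trend, Benjamini-Hochberg adjustment over all 12507 genes tested), and 4 did not pass. The background was high, since 56.9% of all genes tested passed, 28.3% lower and 28.5% higher, so 6 of 10 is near what the whole table showed. The classes did not move as blocks. Among the 6 promoting factors Klf9, Klf13 and Klf15 fell while Klf5 and Klf6 rose and Klf4 did not pass, with a median log2 change of -0.27, which was 0.14 when genes under 4 RPKM, Klf15 among them, were left out. Among the 3 repressing factors Klf3 rose and Klf2 and Klf7 did not pass, with a median of -0.15. That median was 0.037 without Scr replicate 1, 0.0018 without Scr replicate 2 and 0.10 with the 4 RPKM limit, which leaves out Klf7, so its direction is not settled. Over all genes tested the median was -0.0053. The 3 values of a group lay outside the range of the other group for the 6 factors that passed and for none of the other 4, against 62% of all genes tested, 31.2% lower and 30.9% higher.

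**Figure D1:**
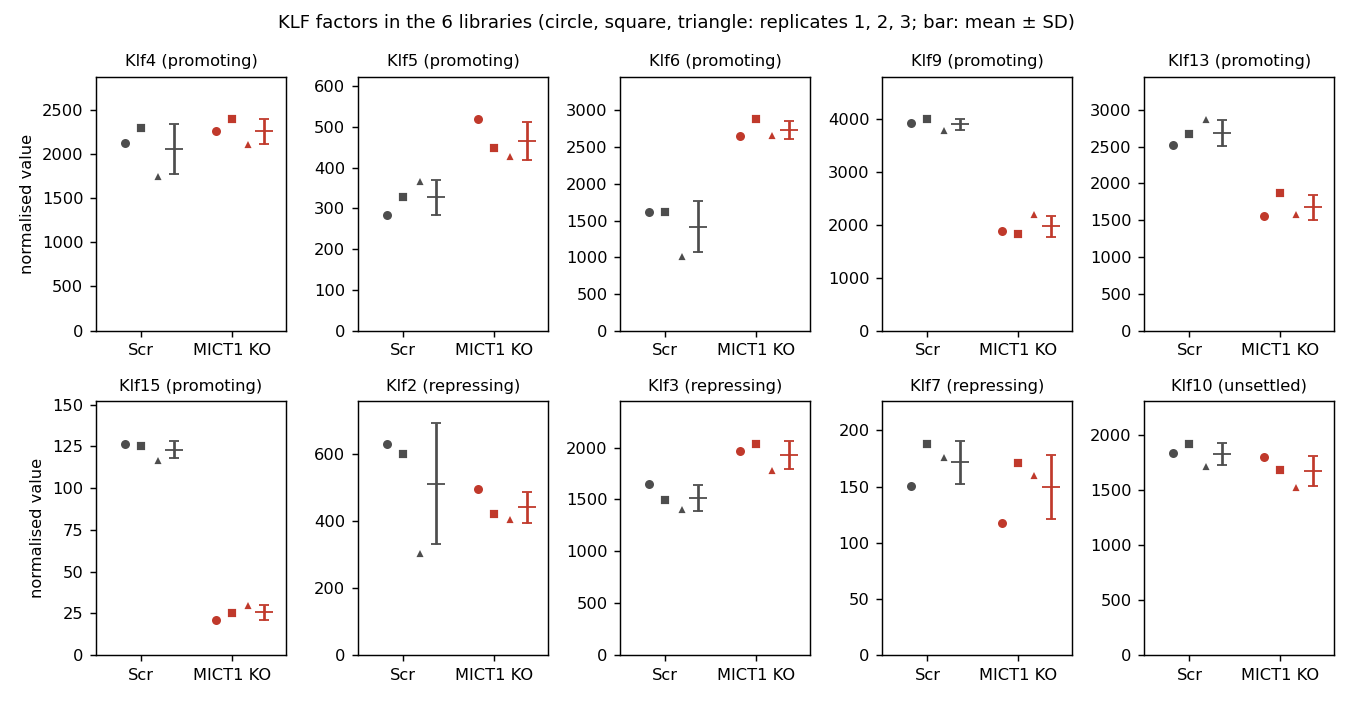
Normalised value (estimated reads divided by a size factor, linear axis from 0) of the 10 KLFs in the 3 Scr (grey) and 3 MICT1 KO (red) libraries, with the mean and SD (n = 3) beside the points. Klf9, Klf13 and Klf15 lie lower in all 3 MICT1 KO libraries, Klf3, Klf5 and Klf6 lie higher in all 3, and the groups overlap for Klf2, Klf4, Klf7 and Klf10, with Scr replicate 3 low for Klf2 and Klf6.

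Klf15 had the largest change of the 10. It is a late factor of adipogenesis that raises Pparg and the glucose transporter gene Slc2a4, and in liver and muscle it drives amino acid breakdown. Klf15 (chromosome 6, 90461043 to 90491803, plus strand, GRCm38) had normalised values of 127, 125 and 117 in Scr libraries and of 21.0, 25.3 and 30.1 in MICT1 KO libraries. The groups were far apart, and the 3 libraries of each lay close together. The mean went from 123 ± 5.16 (SD, n = 3) to 25.4 ± 4.55 (SD, n = 3), which is a log2 change of -2.24 (SE 0.25, limma-trend adjusted p = 1.83e-07) or 4.73-fold lower. These are modest read numbers, 128, 135 and 115 estimated reads in the controls against 22, 24 and 29. Klf15 was the only one of the 10 to fall at least 2-fold, as did 5.76% of all genes tested.

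Klf9, which is induced by glucocorticoids and activates Pparg in mid-differentiation, was the most abundant KLF of Scr cells. Klf9 (chromosome 19, 23141226 to 23168129, plus strand) had normalised values of 3915, 3987 and 3785 in Scr libraries and of 1882, 1826 and 2194 in MICT1 KO libraries. All 3 MICT1 KO libraries held about the same lower level, with replicate 3 the highest of them. The mean fell from 3896 ± 102 (SD, n = 3) to 1967 ± 199 (SD, n = 3), which is a log2 change of -0.99 (SE 0.066, limma-trend adjusted p = 5.29e-11).

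Klf13, known to activate the Pparg promoter and, in T cells, the chemokine gene Ccl5, also fell. Klf13 (chromosome 7, 63886351 to 63938915, minus strand) had normalised values of 2524, 2668 and 2872 in Scr libraries and of 1561, 1873 and 1590.1 in MICT1 KO libraries, again with no overlap. Its log2 change was -0.69 (SE 0.072, limma-trend adjusted p = 6.25e-08), from 2688 ± 175 (SD, n = 3) to 1675 ± 173 (SD, n = 3).

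The other side of the promoting class rose. Klf6, which represses the preadipocyte gene Dlk1 and is induced early after stimulation in many cells, had normalised values of 1612, 1618 and 1019 in Scr libraries and of 2653, 2879 and 2664 in MICT1 KO libraries (chromosome 13, 5861489 to 5870393, plus strand). The MICT1 KO libraries were alike and higher than all Scr libraries, of which replicate 3 stood below the other 2. Its log2 change was 0.98 (SE 0.12, limma-trend adjusted p = 3.37e-07), and 0.76 without Scr replicate 3 (SE 0.066, limma-trend adjusted p = 8.76e-09).

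Klf5, which is induced by C/EBPβ and C/EBPδ and then activates Pparg, rose as well. Klf5 (chromosome 14, 99298691 to 99313412, plus strand) had normalised values of 284, 328 and 368 in Scr libraries and of 519, 449 and 429 in MICT1 KO libraries. The lowest MICT1 KO library was above the highest Scr library. Its log2 change was 0.51 (SE 0.12, limma-trend adjusted p = 0.000857), or 1.43-fold higher.

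Klf4, a pluripotency factor that acts with Egr2 on Cebpb at the onset of adipogenesis, had normalised values of 2123, 2302 and 1751 in Scr libraries and of 2267, 2395 and 2111 in MICT1 KO libraries (chromosome 4, 55527137 to 55532475, minus strand). The groups overlapped. The log2 change was 0.14 (95% confidence interval -0.027 to 0.31, limma-trend adjusted p = 0.144). It depended on the Scr libraries, at 0.029 without replicate 3 (adjusted p = 0.759) and at 0.23 without replicate 2, where it passed (limma-trend adjusted p = 0.0343).

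Among the repressing factors Klf3 was the one that rose. Klf3 recruits the corepressor CtBP and is known to repress Cebpa. Klf3 (chromosome 5, 64803521 to 64832901, plus strand) had normalised values of 1645, 1492 and 1405 in Scr libraries and of 1966, 2038 and 1782 in MICT1 KO libraries, without overlap. The log2 change was 0.35 (SE 0.071, limma-trend adjusted p = 0.000284), or 1.27-fold higher, from 1514 ± 121 (SD, n = 3) to 1928 ± 132 (SD, n = 3).

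Klf2, which represses the Pparg promoter in preadipocytes and is prominent in endothelial cells, had normalised values of 632, 602 and 305 in Scr libraries and of 496, 421 and 407 in MICT1 KO libraries (chromosome 8, 72319062 to 72321654, plus strand). Here 2 Scr libraries lay above all MICT1 KO libraries and 1 below all of them. The log2 change was -0.15 (95% confidence interval -0.53 to 0.23, limma-trend adjusted p = 0.502). Scr replicate 3 decided this value. Without it the log2 change was -0.49 (SE 0.11, limma-trend adjusted p = 0.00108), while it was 0.037 without Scr replicate 1 and 0.0018 without Scr replicate 2. For endothelial markers, 1 of 6 was in the table, Cdh5, at 5.93 to 12.1 in Scr and 25.9 to 33.4 in MICT1 KO libraries, and its part in the Klf2 values was not tested.

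Klf7, which lowers Pparg and Cebpa when overexpressed in preadipocytes, was the lowest of the 10 per length of transcript in Scr cells. Klf7 (chromosome 1, 64029448 to 64122345, minus strand) had normalised values of 150.3, 188 and 176 in Scr libraries and of 117, 171 and 161 in MICT1 KO libraries, which overlapped. The log2 change was -0.21 (95% confidence interval -0.57 to 0.15, limma-trend adjusted p = 0.319). The annotated lincRNA Gm26649 runs on the opposite strand over 3196 bases of Klf7 exons, and 38.2% of the 50-base stretches of Klf7 transcripts are also found in it. Gm20033 overlaps 404 bases of Klf3 exons in the same way (3.48% of the stretches shared with any other gene). The methods describe strand-specific libraries, which mark the strand, but whether the counting used it was not given in the sources used here. The other 8 factors shared at most 0.263% of their stretches with another gene and no 2 of the 10 shared any.

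Klf10, known as TGF-β-inducible early gene 1, had normalised values of 1832, 1919 and 1717 in Scr libraries and of 1799.9, 1679 and 1529 in MICT1 KO libraries (chromosome 15, 38291464 to 38300711, minus strand). The groups overlapped, with a log2 change of -0.13 (95% confidence interval -0.27 to 0.017, limma-trend adjusted p = 0.125). Without MICT1 KO replicate 1 it was -0.18 and passed (limma-trend adjusted p = 0.0337).

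**Figure D2:**
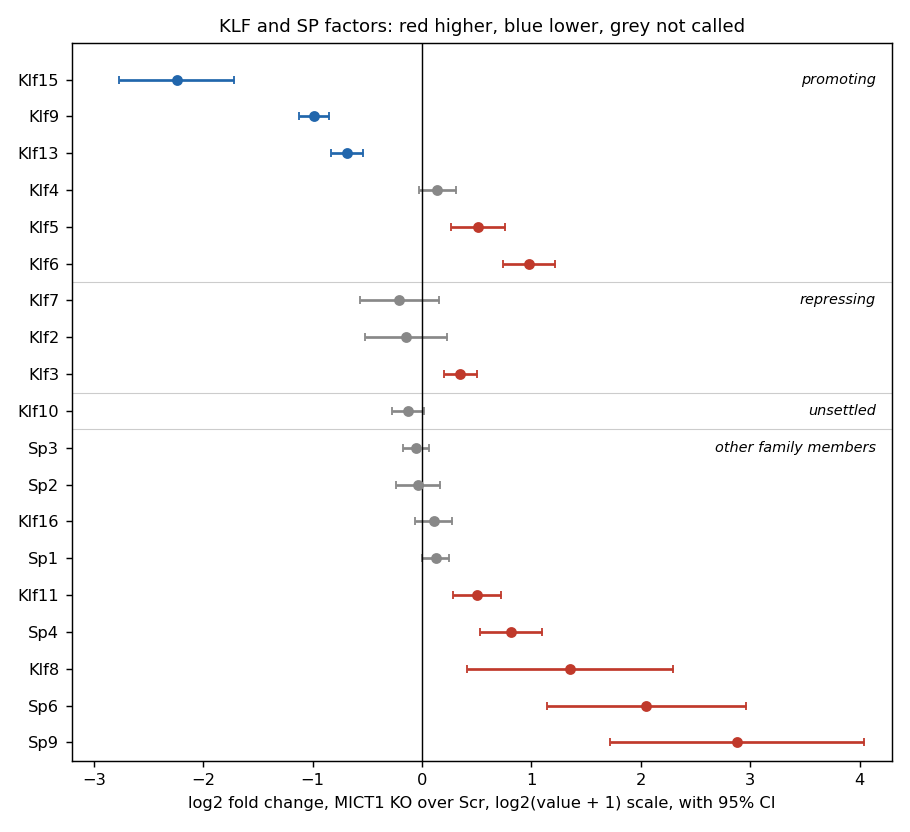
Log2 fold change of MICT1 KO over Scr cells on the log2(value + 1) scale, with 95% confidence intervals from limma-trend, for the 10 KLFs by class and for the other 9 KLF and SP factors tested. Of these, Sp9 passed the filter through MICT1 KO libraries alone, and Sp6 and Klf8 only with the help of MICT1 KO libraries. Promoting factors stand on both sides of 0, from -2.24 for Klf15 to 0.98 for Klf6, and Klf3 is the repressing factor to the right of 0.

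Per length of transcript, the order of the 10 factors differed between the groups. In Scr cells Klf9 came first with 49.4 ± 1.30 RPKM (reads per kilobase of exon, scaled by the sum of values, SD, n = 3), followed by Klf4 with 41.2 ± 5.47, Klf10 with 26.6 ± 1.38, Klf13 with 21.8 ± 1.30, Klf6 with 19.7 ± 4.82 and Klf2 with 17.0 ± 6.03. Klf3 followed with 8.23 ± 0.760, Klf5 with 3.84 ± 0.468, Klf15 with 2.69 ± 0.129 and Klf7 with 1.29 ± 0.126 RPKM. In MICT1 KO cells Klf4 led with 45.4 ± 2.82 RPKM and Klf6 was next with 38.1 ± 1.89, ahead of Klf9 with 25.0 ± 2.61 and Klf10 with 24.5 ± 1.85. Klf2 (14.6 ± 1.48), Klf13 (13.6 ± 1.45), Klf3 (10.5 ± 0.700), Klf5 (5.48 ± 0.518), Klf7 (1.13 ± 0.220) and Klf15 (0.559 ± 0.103 RPKM) came after. Neighbours whose 3 libraries overlapped, so that their order is not set, were Klf13 with Klf6 and Klf6 with Klf2 in Scr cells, and Klf9 with Klf10 and Klf2 with Klf13 in MICT1 KO cells. Klf9 thus led in Scr cells and stood behind Klf4 and Klf6 in MICT1 KO cells.

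**Figure D3:**
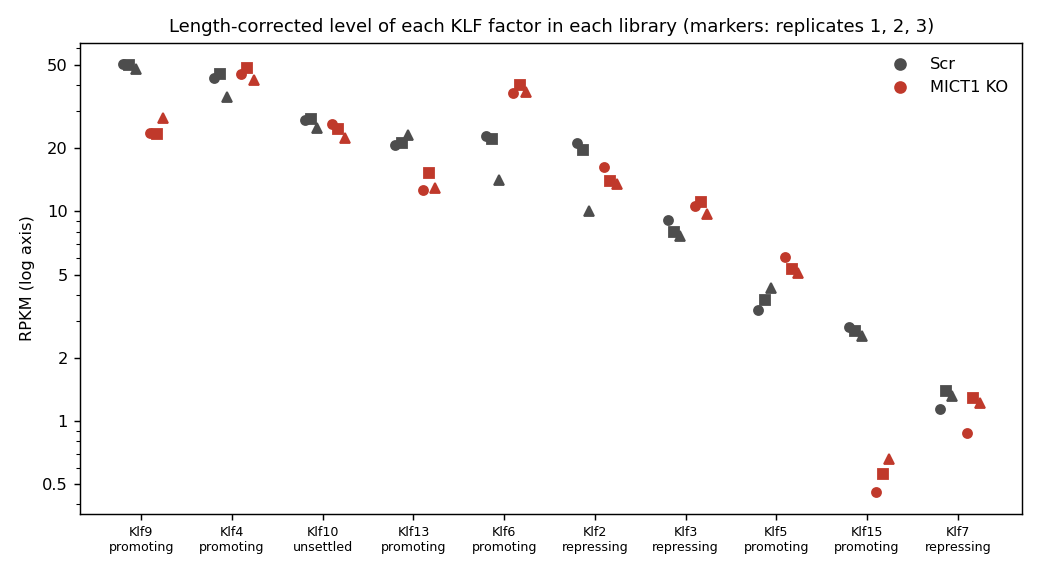
RPKM of the 10 KLFs in each library on a log axis, in the order of their Scr mean, with Scr in grey and MICT1 KO in red. Klf9 leads in Scr cells at 49.4 RPKM and drops to 25.0 in MICT1 KO cells, where Klf4 and Klf6 are above it, and Klf15 drops below 1 RPKM.

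The classes were then summed. The 6 promoting factors summed to 139 ± 9.89 RPKM (SD, n = 3) in Scr and 128 ± 4.24 RPKM (SD, n = 3) in MICT1 KO cells, and the 3 repressing factors to 26.5 ± 6.58 and 26.3 ± 1.66 RPKM. The promoting share of both classes together was 82.0%, 83.4% and 87.0% for Scr replicates 1 to 3 against 81.8%, 83.4% and 83.8% for MICT1 KO, so the groups overlapped. The difference of the means, -1.14 percentage points, was -4.37 without length correction and -3.42 without Klf4 and Klf2, the most abundant of each class, and in both the groups did not overlap. Split after their values were seen, Klf9, Klf13 and Klf15 together went from 73.9 ± 0.170 to 39.2 ± 2.43 RPKM and Klf4, Klf5 and Klf6 together from 64.8 ± 9.80 to 89.0 ± 4.48 RPKM, a description with no test.

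Scr replicate 3 was low for several of these genes and for some early-response genes, the first genes switched on by cAMP or growth factors. Against the mean of the other 2 Scr libraries it stood at -1.01 on the log2 scale for Klf2, -0.66 for Klf6 and -0.34 for Klf4. In that library 1.36%, 3.29% and 8.91% of all genes tested were as low or lower. Klf5 (0.27), Klf13 (0.15) and Klf7 (0.065) stood on the other side. The median over the 10 KLFs was -0.12 in Scr replicate 3 and also -0.12 in MICT1 KO replicate 3. Of the cAMP early-response genes, Nr4a2 (-1.02), Fosb (-0.93), Fos (-0.75) and Nr4a1 (-0.45) were also low there. Crem (0.29), Pde4d (0.35) and Nr4a3 (0.042) were not, and Junb (-0.20), Egr1 (-0.18) and Sik1 (-0.16) were slightly low. Fos, Nr4a1, Crem, Nr4a3, Junb and Sik1 were named after their values were seen. The medians over the 10 early-response genes were -0.19 in Scr replicate 3, 0.054 in Scr replicate 1 and 0.22 in Scr replicate 2, and between -0.035 and 0.018 in the MICT1 KO libraries. The part of this library in the comparisons is given by the values without it. Without Scr replicate 3, 3 of the 10 KLFs were higher and 4 lower, Klf2 being the one added.

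**Figure D4:**
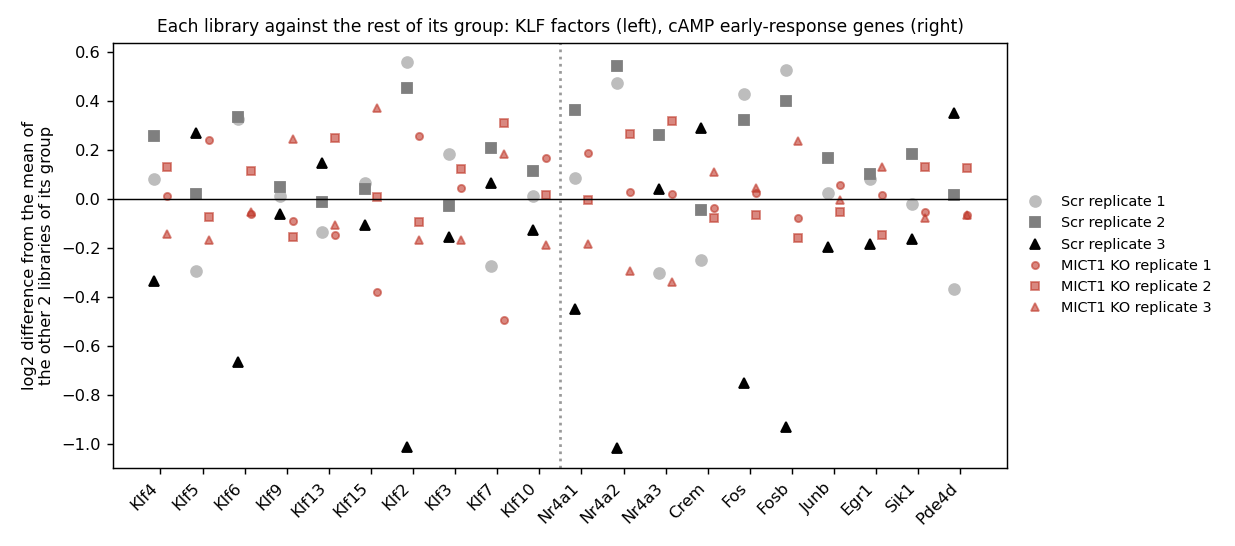
Log2 difference of each library from the mean of the other 2 libraries of its group, on the log2(value + 1) scale, for the 10 KLFs and for 10 cAMP early-response genes. Scr replicate 3 (black triangles) lies lowest for Klf2 (-1.01), Klf6 (-0.66), Nr4a2 (-1.02), Fosb (-0.93) and Fos (-0.75), and near the others for Klf9 and Klf15.

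The rest of the family was compared from the same fit. Of 17 other KLF and SP factors, 11 were in the table and 9 were tested, of which 5 were higher and 0 lower in MICT1 KO cells at that limma-trend threshold, beside 28.5% higher and 28.3% lower of all genes tested. Among the 5, Sp9 reached the minimum value of the filter in MICT1 KO libraries alone and so had to differ, which leaves 4 of 8. Sp6 and Klf8, which are still within those 4, also needed MICT1 KO libraries, where they were high, to pass the filter. Their Scr replicate 2 lay under the minimum value (5.56 and 9.27). Only Sp4 and Klf11 were called without such help. The counts of 5 of 9 and 4 of 8 are therefore not read as a result about the family. The count of 5 was 3 without MICT1 KO replicate 2, where Sp9 was not tested, and 1 of 5 tested with the 4 RPKM limit. The abundant ones did not pass. Sp1 had a log2 change of 0.13 (adjusted p = 0.0727), Sp3 of -0.052 (adjusted p = 0.460) and Klf16 of 0.11 (adjusted p = 0.272, all from limma-trend), and Sp1 passed without Scr replicate 1 (adjusted p = 0.0368) or MICT1 KO replicate 1 (adjusted p = 0.0386). Sp4 rose from normalised values of 167, 157 and 190.3 to 282, 320.3 and 299.6, which is a log2 change of 0.81 (SE 0.14, limma-trend adjusted p = 3.16e-05). Klf11, named here after its values were seen and known to act with PPARγ in brown adipocytes, rose from 382, 477 and 361 to 551, 586 and 580.5, which is a log2 change of 0.50 (SE 0.11, limma-trend adjusted p = 0.000450).

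The other 3 were scarce. Sp9 went from normalised values of 3.96, 1.85 and 3.05 to 33.4, 21.1 and 29.0 and is given as a description with no test, and it was not tested in any fit that left out a MICT1 KO library. Sp6 went from 12.9, 5.56 and 24.4 to 68.2, 43.0 and 52.9 (log2 change 2.05), also given with no test. The fold of Sp6 depends on the pseudocount, and group means of Sp6, Sp9 and Klf8 did not exceed 0.872 RPKM. Klf8, at 13.8, 9.27 and 17.3 against 27.6, 70.6 and 21.8, had a log2 change of 1.35 and is likewise given with no test. Its call, counted above, was lost without MICT1 KO replicate 2 (0.86), the library with the high value, and without Scr replicate 2 (1.13).

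Most of the listed adipogenic genes, downstream of these factors or mature adipocyte genes, were lower in MICT1 KO cells. Adipoq, Plin1, Fabp4, Lpl and Pparg are also among the adipocyte markers above, so this list is not separate from that check. Dlk1 is in the list as a target of Klf6, although it is a preadipocyte gene and also among the preadipocyte markers below. Of 12 listed, 11 were tested, 10 lower and 1 higher in MICT1 KO cells by limma-trend, beside 28.3% and 28.5% of all genes tested. Adipoq reached the minimum value in Scr libraries alone. Without it 9 of 10 were lower, with a median log2 change of -3.17. Pparg fell from 3742 ± 467 to 754 ± 66.7 (SD, n = 3), which is a log2 change of -2.31 (limma-trend adjusted p = 1.69e-15), and Cebpa, the target of Klf3, from 8019 ± 1353 to 991 ± 148, or -3.01 (adjusted p = 4.61e-16). Slc2a4, which encodes GLUT4 and is raised by Klf15, went from 255, 233 and 294 to 10.5, 17.9 and 8.29, which is a log2 change of -4.37. It reached the minimum value in every Scr library but not in MICT1 KO replicate 3, so it is given with no test. Dlk1, the gene that Klf6 represses, was at 727, 661 and 674 in Scr libraries and at 58.2, 44.3 and 89.1 in MICT1 KO libraries, which is a log2 change of -3.47 (limma-trend adjusted p = 1.52e-12). The C/EBP factors that come early in adipogenesis differed from each other. Cebpb fell with a log2 change of -0.45 (adjusted p = 4.42e-07), whereas Cebpd, upstream of Klf5, rose with one of 1.40 (adjusted p = 3.82e-13, both from limma-trend). Adipoq, the adiponectin gene, was at 733, 468 and 672 against 7.63, 3.16 and 5.18, given with no test. The mature adipocyte genes Plin1 (-5.93), Cd36 (-4.22), Fabp4 (-3.33) and Lpl (-2.44) made up the others that fell.

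Within the MICT1 KO group, the library with the highest Plin1 and Fabp4, replicate 3 (90.2 and 7002, against 19.0 to 55.3 and 3862 to 5520), also had the highest Klf9 and Klf15, but Klf13 was highest in replicate 2, where Plin1 was lowest. Within the Scr group, replicate 3 had the highest Plin1 (3029) and the lowest Klf9 and Klf15, so the libraries of a group showed no single order. Markers of preadipocytes and fibroblasts, of which 6 of 7 were in the table, summed to 21644 to 23341 in Scr and 32887 to 37690 in MICT1 KO libraries. Most of each sum was Col1a1, at 17281 to 18330 and 27994 to 32997. Of the 5 tested, Ly6a, Col1a1 and Pdgfrb were higher and Dlk1 and Pdgfra lower, and Cd34 was near 0. The groups overlapped for Pdgfra, at 2206 to 2444 in Scr and 1829 to 2326 in MICT1 KO libraries. Macrophage markers, 4 of 7 in the table, summed to 267 to 384 in Scr and 516 to 638 in MICT1 KO libraries. Cd14 was the largest part of each sum, at 130 to 231 and 388 to 480. It passed as higher (log2 change 1.24, limma-trend adjusted p = 2.44e-06), whereas Csf1r (0.29), Mrc1 (0.022) and Cd68 (-0.23) did not pass. The part of either marker list in the KLF values was not tested.

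Of 7 other documented KLF targets, 4 were higher and 2 lower (limma-trend), beside 28.5% and 28.3% of all genes tested. Bcat2, the mitochondrial branched-chain aminotransferase gene, which responds to Klf15, fell from 1219 ± 69.4 to 131 ± 8.98 (SD, n = 3), which is a log2 change of -3.21 (limma-trend adjusted p = 4.03e-16). Acss2, the cytosolic acetyl-CoA synthetase gene, was in the list too but is not the synthetase gene known as a Klf15 target and is not in that count. It fell with a log2 change of -1.28 (adjusted p = 6.65e-08). Further amino acid breakdown genes tied to Klf15 were low in reads, Gpt (-0.85, adjusted p = 0.0219) and Prodh (0.92, adjusted p = 0.0440). The call of Gpt was lost without Scr replicate 1 (adjusted p = 0.0773), Scr replicate 2 (0.0628) or MICT1 KO replicate 2 (0.0638), and that of Prodh in each fit that left out a library other than Scr replicate 3 (adjusted p from 0.0505 to 0.176). Ccl5 rose from 73.2, 61.2 and 67.2 to 245, 204 and 279.9 (log2 change 1.83, adjusted p = 2.32e-08). Thbd, the thrombomodulin gene that Klf2 and Klf4 raise in endothelium, rose with a log2 change of 0.57 (adjusted p = 3.49e-07), and Smad7, which Klf10 represses, with one of 0.39 (adjusted p = 1.69e-05, all from limma-trend). Cdkn1a did not pass (0.0013, limma-trend adjusted p = 0.988).

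**Figure D5:**
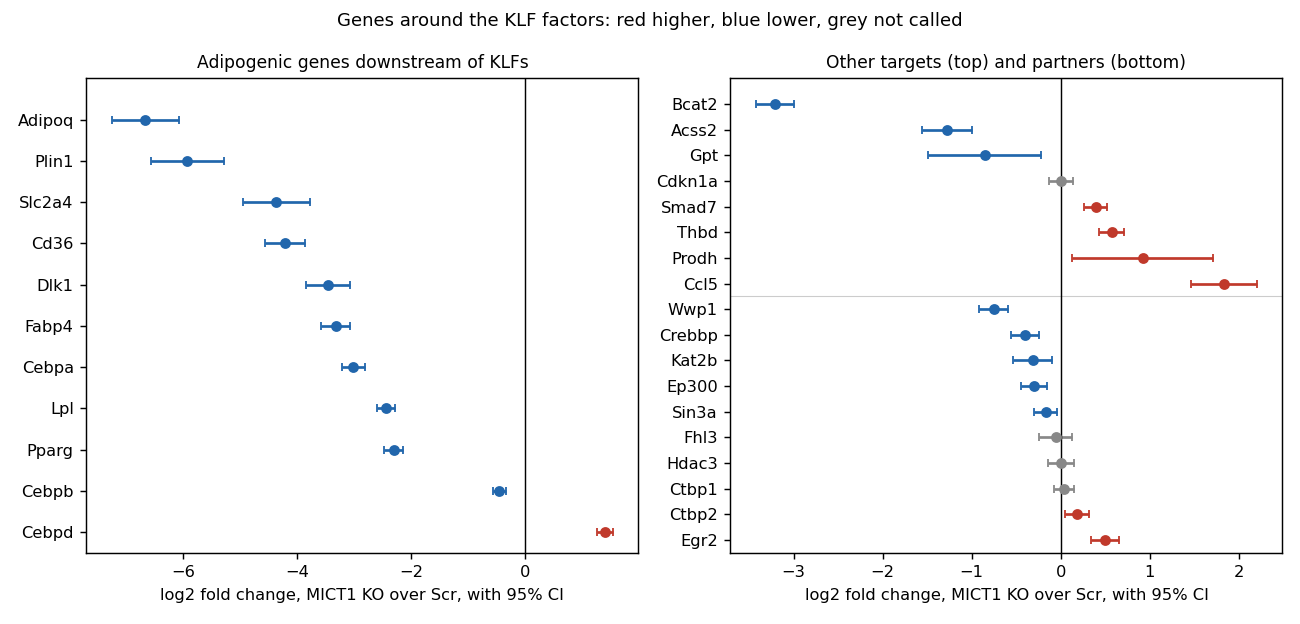
Log2 fold change of MICT1 KO over Scr cells on the log2(value + 1) scale, with 95% confidence intervals, for adipogenic genes downstream of the KLFs (left) and for other targets, Acss2 included, and for partners (right). All genes of the left panel but Cebpd (1.40) are left of 0, the preadipocyte gene Dlk1 included. Bcat2 is the lowest of the other targets at -3.21, and Wwp1 the lowest partner at -0.75.

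Cofactors were read from a further list. Of 10 partners, 2 were higher and 5 lower by limma-trend, around a median log2 change of -0.11. Of all genes tested, 28.5% were higher and 28.3% lower. Wwp1, a ubiquitin ligase of Klf5 and Klf2, fell from 1189 ± 58.6 to 707 ± 54.2 (SD, n = 3), which is a log2 change of -0.75 (adjusted p = 5.85e-08), and Crebbp, an acetyltransferase, fell by 0.40 on that scale (adjusted p = 0.000132). Egr2, the partner of Klf4, rose with 0.50 (adjusted p = 1.05e-05), and Ctbp2, a corepressor that Klf3 binds, with 0.19 (adjusted p = 0.0175, all from limma-trend). The call of Ctbp2 was lost without Scr replicate 1 (0.15, adjusted p = 0.0916) or MICT1 KO replicate 1 (0.15, adjusted p = 0.0708). The lower count was 3 without Scr replicate 3 or MICT1 KO replicate 3.

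The signals known to set KLF levels were read from 4 further lists, beside 28.5% higher and 28.3% lower of all genes tested. Of 8 genes of the glucocorticoid receptor and its targets, 5 were higher and 3 lower (limma-trend; 3 higher without MICT1 KO replicate 3). Zbtb16 (log2 change -2.43, adjusted p = 7.80e-09) and the receptor gene Nr3c1 (-0.71, adjusted p = 9.63e-09) fell most, beside Klf9 and Klf15, while Sgk1 (1.66, adjusted p = 7.64e-16) and Errfi1 (1.10, adjusted p = 4.57e-13, all from limma-trend) rose most. Of 10 cAMP early-response genes, 6 were higher and 3 lower. Egr1 (1.82, adjusted p = 1.38e-15) and Nr4a2 (1.69, adjusted p = 1.14e-07) rose most, and Pde4d (-1.001, adjusted p = 1.45e-09) and Fosb (-0.67, adjusted p = 0.00346, from limma-trend) fell most. The groups overlapped for Fosb, whose Scr replicate 3 (245) lay within the MICT1 KO range of 219 to 263.

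ERK5, a kinase, acts through MEF2 factors to induce Klf2 and Klf4. Of 5 genes of ERK5 and MEF2, Mef2d fell (log2 change -0.36, adjusted p = 9.74e-06) by limma-trend. Mef2c, scarce at 0.989, 10.2 and 4.07 in the controls against 25.7, 13.7 and 17.6 after the knockout, passed the filter through the group where it was high and is given with no test. The lower count was 2 without Scr replicate 2 or MICT1 KO replicate 1. Of 11 TGF-β pathway genes, 4 were higher and 4 lower (2 higher without MICT1 KO replicate 3), beside 28.5% and 28.3% of all genes tested. Ccn2 rose from 488 ± 55.1 to 5400 ± 176 (SD, n = 3), which is a log2 change of 3.47 (adjusted p = 5.87e-19), and Tgfb1 with 0.58 (adjusted p = 1.96e-05), whereas Tgfbr1 (-0.81, adjusted p = 1.62e-10) and Smad3 (-0.58, adjusted p = 3.62e-06, all from limma-trend) fell, beside a Klf10 level that did not pass.

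The genes whose pattern was most like that of Klf15 were Clmp, Clstn3, Ank1, Pex16 and Pus10, with Pearson r of log2(value + 1) from 0.9985 to 0.9999 over the 6 libraries. Their own log2 changes ranged from -0.51 for Clmp to -5.08 for Clstn3, so this likeness is in the order and spacing of the libraries and not in the size of the change. Among 10828 genes compared, 1381 had an r of at least 0.95. With 6 libraries in 2 groups that lay far apart for Klf15, r largely follows the group difference. The spacing of Klf15 within the MICT1 KO group rests on 22, 24 and 29 estimated reads, so the ranking of these genes is not settled.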

How the data were processed

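RNA-seq of 3 Scr and 3 MICT1 KO libraries was compared. The values the authors deposited are a normalised signal per gene. Per the labels and the methods, reads were aligned to GRCm38/mm10, with Partek, STAR and DESeq2 named among the tools. The counting model, annotation and filter were not given in the sources used here. Between 88.7% and 90.2% of values under 20 were whole multiples, within 0.01, of a step per library, so the values were read as estimated reads, some split between genes, divided by size factors of 0.949 to 1.08. They are not whole counts, so no count test was run. Every deposited value was above 0.

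The members, gene lists and rules were chosen with earlier results of these data known. Genes reaching 10 in 3 libraries were fitted on log2(value + 1) by limma-trend (limma 3.58.1, R 4.3.3), which was tested on simulated data, and called at an adjusted p under 0.05. The log2(value + 1) scale understates changes of low genes. All 10 KLFs passed the filter. Named genes were the 10 KLFs, the 3 most abundant other family members and those changed at least 1.5-fold, every tested downstream gene and target, the 2 largest rises and falls of each further list, and the 5 genes most like the KLF that changed most. RPKM used GENCODE vM21 exon lengths, found for 98.9% of genes, and the sum of values. The methods' rule was 1.8-fold with p under 0.05 and a maximum RPKM of at least 4. An exact test of 3 against 3 values cannot go below 0.1. No source ties a replicate number to a culture, p-values measure the spread between these libraries, and their number limits the precision. The alternatives were 2 other scalings, limma-voom, no filter or an RPKM filter, pseudocounts of 0.5 and 5, the replicate number as a block, and each library left out.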

Additional observations from a re-analysis of the deposited data

How the results depend on the processing

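The calls of Klf3, Klf5, Klf6, Klf9, Klf13 and Klf15 held in the scaling, voom, filter, pseudocount and leave-one-out fits in which they were tested. The filter at 4 RPKM left Klf15 and Klf7 untested, giving 3 KLFs higher and 2 lower and medians of 0.14 (promoting) and 0.10 (repressing), and 1 of 5 other family members higher. At the 1.8-fold limit of the methods, with an unadjusted p under 0.05 but without their RPKM condition, 17.5% of genes passed. Of these, 1265 were higher and 924 lower, as were 1 KLF (Klf6) and 2 KLFs (Klf9 and Klf15). Klf15 would not meet the RPKM condition, as its highest value was 2.82 RPKM. With each library left out the KLF counts were 3 to 4 in either direction, and the repressing median ran from -0.19 to 0.037. The other family members higher were 3 to 6, a count open to Sp6, Klf8 and Sp9, which needed MICT1 KO libraries to pass the filter. Klf2 turned to 0.037 and 0.0018 without Scr replicate 1 or 2 (lowest -0.49), and Cdkn1a to -0.073, -0.033 and -0.0074 without Scr replicate 1, MICT1 KO replicate 1 or 3 (highest 0.046). The promoting share, MICT1 KO minus Scr, was -1.14 percentage points in RPKM, -3.42 without Klf4 and Klf2, and -4.37 without length correction, and in the last 2 settings the groups did not overlap. The cause was not tested. Deviations of same-numbered libraries from their group means had r of -0.024, -0.015 and 0.064. Libraries of unlike number had r from -0.043 to 0.056. Such correlations within groups of 3 cannot settle whether same-numbered libraries shared a culture or a batch. With the replicate block 3543 genes were higher and 3512 lower, against 3569 and 3544, and the KLF counts stayed at 3 and 3. Low read numbers limit Klf15, Klf8, Sp6, Gpt and Prodh most.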
